A study of Mus musculus with 26 samples.

Results

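The regions described here were 1421 promoter peaks of EZH2 in wild-type (WT) mouse embryonic fibroblasts (MEFs) whose genes also carried H3K27me3, the trimethyl mark on lysine 27 of histone H3. They were chosen on measured values. A peak of the first WT replicate of EZH2 was kept when it was under 5000 bp wide, overlapped a peak of the second WT replicate by at least 1 bp and lay within 2.0 kb of the transcription start site (TSS) of a protein-coding gene. The window of 2.0 kb on each side of that TSS also had to overlap an H3K27me3 peak in both WT replicates. Of 22301 EZH2 peaks of the first WT replicate on the assembled chromosomes, 8676 were promoter peaks found in both replicates and under the width limit. The 1421 peaks with H3K27me3 stood at 1402 of 21938 protein-coding genes. The other promoter peaks were 7104 without H3K27me3 in either WT replicate, which serve as the reference below, and 151 with H3K27me3 in a single replicate or at only some of their genes.

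CUT&RUN, in which an antibody directs the release of the chromatin fragments it binds, was done for ATRX, EZH2 and H3K27me3, and polyadenylated RNA was measured by RNA-Seq. Each combination of target and genotype was represented by 2 replicate libraries, and each CUT&RUN library by its own list of broad peaks. The WT cells were a line of female MEFs. ATRXΔRBR cells were a single CRISPR clone of that line, in which the RNA-binding region (RBR) was deleted from the endogenous Atrx gene. ATRX KD cells were WT cells that carried a short hairpin RNA against Atrx and had been selected with puromycin. No ATRX lists were used for ATRX KD cells. A difference of the clone cannot be told apart from an effect of the deletion, and the study calls its replicates biological without saying whether they were separate cultures, so the p-values measure the spread between these libraries.

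EZH2 is the catalytic subunit of Polycomb repressive complex 2 (PRC2) and places H3K27me3. The mark is read by Cbx proteins of PRC1 and is typical of silent promoters rich in CpG dinucleotides, among them many genes of developmental regulators that a differentiated cell does not use. ATRX is a chromatin remodeler of the SNF2 family that also binds RNA.

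Several facts of the libraries bear on what follows. Estimated counts per RNA-Seq library summed to between 9051693 and 21723647. Counts of Atrx itself were 8278 and 5195 for WT, 3531 and 4291 for ATRXΔRBR and 3768 and 11891 for the libraries labelled ATRX KD, and its fall was not detectable in either comparison with edgeR's quasi-likelihood test (adjusted p = 0.605 for ATRX KD and 0.14 for ATRXΔRBR). RNA counts thus do not check the label ATRX KD, and the study's check of these cells was on protein, which is not measured in the files used here. In TPM, RSEM's measure of level scaled for transcript length and library size, fibroblast markers summed to between 7202 and 11556 and those of epithelium, endothelium, blood, skeletal muscle and pluripotent cells to at most 13.8 TPM and neural markers to between 84.6 and 106 TPM, while Thy1, a fibroblast surface marker, was at 0 in all 6 libraries. Of the 10 fibroblast markers, 8 had enough counts to be tested in each comparison with WT, so the sum does not stand for every marker. The EZH2 list labelled ATRXΔRBR replicate 2 stood apart, and whether its label is right could not be settled: 97.3% of its 11404 peaks overlapped the list of WT replicate 2 and 83.6% the list of ATRXΔRBR replicate 1. For the 22401 peaks of ATRXΔRBR replicate 1 the overlap with WT replicate 2 was 61.0%. Results for EZH2 in ATRXΔRBR are therefore given for each list. Lists of ATRX KD cells were short, with 5316 and 7039 EZH2 peaks and 7211 and 6305 H3K27me3 peaks, against 22301 and 18341 and 35973 and 38773 in WT. The lists hold no read numbers, so the depth of each library is not known beyond an approximate range that the study gives for all samples, and the libraries of ATRX KD cells carry no run name of the form that the others have, so run and genotype cannot be told apart.

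Promoter sequences are shown for 7 of the genes that the results turn on, because CpG content is the sequence feature compared below. Each sequence is the 200 bases before the TSS, 5′ to 3′ on the strand of the gene, from the GRCm38 assembly of RefSeq, and capitals mark CpG dinucleotides. Mark1 (chr1:184999571-184999770, minus strand), Sim2 (chr16:94084731-94084930, plus strand) and Shroom2 (chrX:152769466-152769665, minus strand) had no RNA-Seq count in ATRXΔRBR cells. Alcam (chr16:52454075-52454274, minus strand) was higher in ATRXΔRBR cells. Hunk (chr16:90385813-90386012, plus strand) had no count in ATRX KD cells. Wnt6 (chr1:74771692-74771891, plus strand) held EZH2 and H3K27me3 in every list of these targets, and Wfs1 (chr5:36989206-36989405, minus strand) was one of few with ATRX.
Mark1: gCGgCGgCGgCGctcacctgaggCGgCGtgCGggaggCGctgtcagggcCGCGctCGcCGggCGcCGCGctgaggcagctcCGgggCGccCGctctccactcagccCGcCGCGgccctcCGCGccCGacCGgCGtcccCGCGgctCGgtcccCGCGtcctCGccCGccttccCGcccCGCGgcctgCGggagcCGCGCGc
Sim2: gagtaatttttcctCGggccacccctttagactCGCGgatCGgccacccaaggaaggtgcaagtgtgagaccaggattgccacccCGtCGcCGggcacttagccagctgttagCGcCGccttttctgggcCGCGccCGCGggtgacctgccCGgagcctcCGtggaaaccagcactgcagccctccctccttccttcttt
Shroom2: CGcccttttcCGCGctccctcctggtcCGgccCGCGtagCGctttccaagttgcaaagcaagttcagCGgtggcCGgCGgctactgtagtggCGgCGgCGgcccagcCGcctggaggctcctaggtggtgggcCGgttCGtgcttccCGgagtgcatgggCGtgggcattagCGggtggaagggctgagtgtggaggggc
Alcam: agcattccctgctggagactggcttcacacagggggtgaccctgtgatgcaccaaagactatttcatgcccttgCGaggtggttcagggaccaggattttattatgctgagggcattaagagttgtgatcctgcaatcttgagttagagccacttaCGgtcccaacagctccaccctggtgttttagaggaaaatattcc
Hunk: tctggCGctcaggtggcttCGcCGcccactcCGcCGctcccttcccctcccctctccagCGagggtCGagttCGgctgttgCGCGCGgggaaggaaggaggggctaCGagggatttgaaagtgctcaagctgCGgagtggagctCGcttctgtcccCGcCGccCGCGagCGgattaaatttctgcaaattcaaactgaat
Wnt6: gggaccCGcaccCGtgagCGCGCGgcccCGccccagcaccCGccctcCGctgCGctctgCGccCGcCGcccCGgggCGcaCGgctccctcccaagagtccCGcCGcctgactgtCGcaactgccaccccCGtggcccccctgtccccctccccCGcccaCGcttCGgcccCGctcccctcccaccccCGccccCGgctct
Wfs1: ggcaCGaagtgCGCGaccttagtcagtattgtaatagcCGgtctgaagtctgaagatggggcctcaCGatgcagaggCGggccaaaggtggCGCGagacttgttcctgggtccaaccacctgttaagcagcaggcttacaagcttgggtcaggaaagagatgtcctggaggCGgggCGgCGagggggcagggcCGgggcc

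These 7 windows differed widely in CpG dinucleotides. Mark1 had 40 of them in 200 bases and Wnt6 25, whereas Alcam had 2. Sim2 had 15, Shroom2 and Hunk 19 each, and Wfs1 12. Over 500 bp on each side of the TSS, the genes with H3K27me3 had a median GC content of 61.4% and a median ratio of observed to expected CpG of 0.691. The ratio was 0.771 at the EZH2 promoters without H3K27me3 and 0.205 at 1378 genes with H3K27me3 in both WT lists but no EZH2 peak. A ratio above 0.6 was found at 69.1% of the members, 84.4% of the EZH2 promoters without H3K27me3, 8.2% of the H3K27me3 genes without EZH2 and 46.0% of all protein-coding promoters. GC content at the members was close to that of other EZH2 promoters, and the CpG ratio lay between those of the other groups, nearer to the EZH2 promoters. These are descriptions across genes, with no test.

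**Figure D1:**
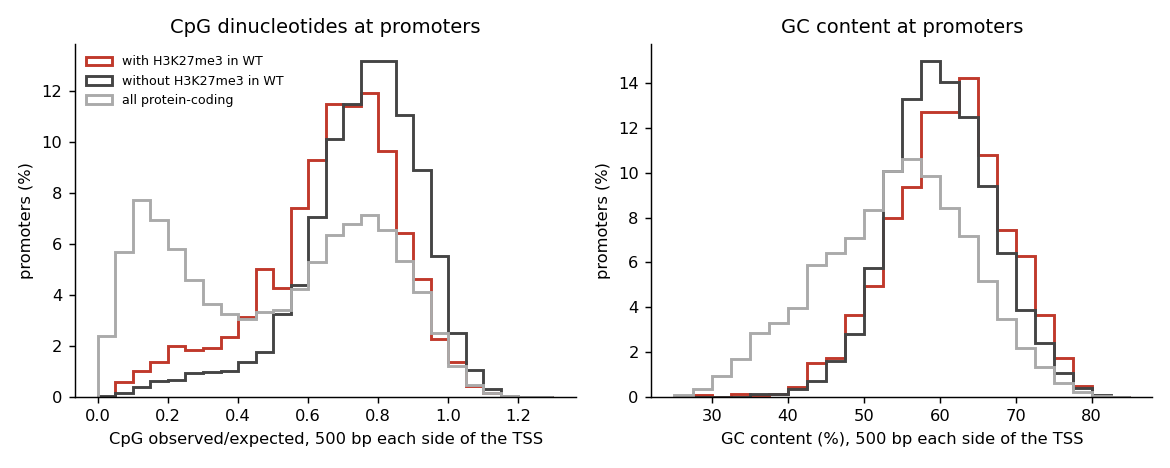
CpG observed/expected ratio (left) and GC content in percent (right) over 500 bp on each side of the TSS, as the percentage of promoters per bin, for EZH2 promoters with H3K27me3 in WT (red), EZH2 promoters without it (dark gray) and all protein-coding genes (light gray). The medians of the ratio were 0.691, 0.771 and 0.552, and the members lacked most of the low peak seen over all genes.

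Short motifs were counted in the same windows on either strand. CGCGCG was found at 49.5% of members, 48.5% of EZH2 promoters without H3K27me3 and 28.3% of all protein-coding promoters. GAGAGA was found at 60.6%, 52.9% and 58.9%, and CCAAT, the core of the NF-Y motif, at 61.9%, 68.3% and 70.7%. TATAAA, the core of the TATA box, was at 18.4% of members against 32.3% of all promoters. AAGATGGC, the core of the YY1 motif, was at 4.14% of members, 11.1% of EZH2 promoters without H3K27me3 and 7.54% of all promoters.

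In WT, the members were wider than the reference. Their median width was 1662 bp, with quartiles of 919 and 2736 bp, against 692 bp for EZH2 promoters without H3K27me3. Fold enrichment of EZH2 over the local background, as computed by MACS2, was closer, with medians of 5.71 and 5.43. In all, 1069 members (75.2%) covered the TSS itself, and 1283 (90.3%) also overlapped H3K27me3 peaks of both WT lists directly. Another 211 peaks met the rest of the rule but were 5000 bp wide or wider. Bcl11b (chr12:108001439-108006436), a zinc finger regulator, was the widest member at 4998 bp and had a fold enrichment of 7.09. Alx1 (chr10:103023582-103028605), a homeobox gene, was just outside at 5024 bp with 7.30. Gfy was the farthest member from its TSS at 1994 bp, and Tunar was just outside at 2005 bp.

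EZH2 was retained at many of these promoters in ATRXΔRBR cells, but the replicates disagreed on how many. In the list of ATRXΔRBR replicate 1, 842 members (59.3%, exact binomial 95.0% interval 56.6 to 61.8) overlapped an EZH2 peak, and in that of replicate 2, 1190 members (83.7%, 81.7 to 85.6) did. The mean was 71.5% ± 17.3 (SD, n = 2) and rests on both lists, of which the label of the second is in doubt. All members had EZH2 in WT by their choice, which was not tested. The EZH2 promoters without H3K27me3 went the other way, with 96.7% and 72.8%. Members therefore lay below the reference in replicate 1 and above it in replicate 2. The direction of this comparison depended on the replicate, and the list of replicate 2 is the one that stood apart. With all EZH2 lists reduced to the 5316 strongest peaks, the mean over ATRXΔRBR was 38.3%.

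**Figure D2:**
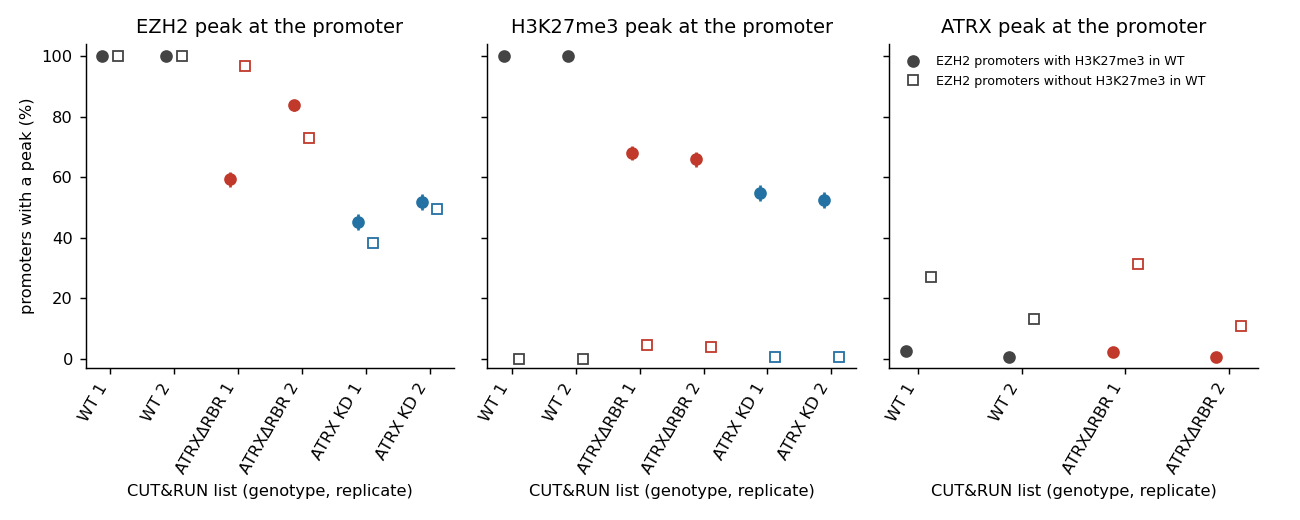
Percentage of EZH2 promoters with a peak of EZH2, H3K27me3 or ATRX (y axis) in each CUT&RUN list (x axis: genotype and replicate), for the members (filled circles) and the EZH2 promoters without H3K27me3 in WT (open squares), with exact binomial intervals that cover counting error only. EZH2 and H3K27me3 in WT are set by the choice of both groups. At the members, EZH2 was found at 59.3% and 83.7% in the 2 ATRXΔRBR lists and ATRX at 2.67% at most.

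At the level of single promoters, 759 members (53.4%) kept EZH2 in both ATRXΔRBR lists, 431 (30.3%) had it only in the list labelled replicate 2, 83 (5.84%) only in replicate 1 and 148 (10.4%) in neither. Absence from both lists was found for 3.7% of all 8676 reproducible EZH2 promoters. The 148 were narrow and weak in WT, with a median width of 668.5 bp and a median fold enrichment of 4.42, against 2102 bp and 6.54 for those that kept EZH2 in both lists. The strongest of the 148 was at Cttnbp2 (chr6:18513868-18515873, fold enrichment 6.37), which encodes a cortactin-binding protein of dendritic spines. Chn2 (chr6:54038521-54040384, 6.32), a Rac GTPase-activating protein, and Tspan12 (chr6:21851306-21852995, 6.09), a tetraspanin of Norrin signaling, followed, so that the strongest 3 all lay on chromosome 6. None of these 3 had H3K27me3 in either ATRXΔRBR list. Ttll9, Scn8a, Ntsr1, Olfm1 and Fam163b completed the strongest 8, and Ttll9, Ntsr1 and Fam163b had H3K27me3 in both ATRXΔRBR lists although EZH2 was in neither.

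H3K27me3 was retained at most of the members in ATRXΔRBR cells, and here the replicates were close. All members had the mark in WT by their choice, which was not tested. A peak was found at 967 members (68.1%, 65.6 to 70.5) in replicate 1 and at 938 (66.0%, 63.5 to 68.5) in replicate 2, with a mean of 67.0% ± 1.44 (SD, n = 2). The mark was in both lists at 907 members (63.8%), in 1 list at 91 and in neither at 423 (29.8%). Absence from both lists was found for 29.2% of all 3225 TSS with H3K27me3 in both WT lists, so the share at members was near that background. With lists reduced to the 6305 strongest H3K27me3 peaks the mean share with the mark was 44.2%. Where the mark was kept its peaks were about as wide as in WT but covered less of the window. The widest H3K27me3 peak at a member had a median width of 6644 and 7164 bp in the WT lists, against 7030 and 6894 bp in the ATRXΔRBR lists. Where present, it covered a median of 93.3% and 98.7% of the window in WT and 72.7% and 71.1% in ATRXΔRBR. The WT lists chose the members by overlap with this window, which favors WT. Medians of WT cover all members and those of ATRXΔRBR only members with a peak, and the difference was not tested.

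Since choosing on WT favors WT, the rule was also applied to single replicates and in reverse. For 1703 promoters chosen on WT replicate 1 alone, H3K27me3 was found at 96.5% in WT replicate 2, but at 65.2% and 63.4% in the ATRXΔRBR lists. EZH2 at the same promoters was found at 86.4% in WT replicate 2, at 54.3% in ATRXΔRBR replicate 1 and at 72.5% in replicate 2. For 1675 promoters chosen on WT replicate 2 alone, the shares with H3K27me3 were 93.5% in WT replicate 1 and 65.0% and 63.0% in ATRXΔRBR, and those with EZH2 were 93.0%, 58.0% and 77.0%. The WT list that took no part in the choice therefore lay above both ATRXΔRBR lists for both targets. With the rule applied to ATRXΔRBR replicate 1 alone, which gave 1534 promoters, the WT lists had EZH2 at 82.3% and 80.1% and H3K27me3 at 70.9% and 73.0%. In ATRXΔRBR replicate 2, EZH2 was at 69.4% and H3K27me3 at 90.5%. For 1187 promoters chosen on replicate 2 alone, EZH2 was at 99.2% and 99.8% in WT and 83.7% in ATRXΔRBR replicate 1. H3K27me3 was at 77.2% and 78.6% in WT and 94.2% in ATRXΔRBR replicate 1. The ATRXΔRBR list that took no part in the choice thus lay above WT for H3K27me3 and below WT for EZH2. With the rule applied to both ATRXΔRBR lists, which gave 969 promoters, the WT lists had EZH2 at 99.6% and 99.8% and H3K27me3 at 77.1% and 78.6% of them. Each genotype thus had promoters with H3K27me3 that the other lacked.

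EZH2 and H3K27me3 went together in replicate 1 more than in replicate 2. Of the 423 members with H3K27me3 in neither ATRXΔRBR list, 19.9% had EZH2 in ATRXΔRBR replicate 1 and 76.8% in replicate 2. Of the 907 that kept the mark in both lists, 78.2% and 86.8% had EZH2. The members without the mark were narrower in WT, with a median EZH2 width of 1319 bp against 1908 bp, and had a higher CpG ratio, 0.725 against 0.683. CGCGCG was found at 55.6% of the genes with the mark in neither list and 47.3% of those with it in both. By chromosome, the share of member genes with the mark in neither list ranged from 14.8% on chromosome 19 to 43.9% on chromosome 18.

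Members with a stronger EZH2 peak in WT more often kept EZH2. The fold enrichment in WT was divided into 3 ranges. In the lowest range, below 4.95, EZH2 was found at 35.0% of 411 members in ATRXΔRBR replicate 1 and 59.1% in replicate 2. In the highest range, above 6.04, it was found at 79.8% of 580 members and 98.3%. Within each range of WT fold enrichment the members had fewer EZH2 peaks in replicate 1 than the EZH2 promoters without H3K27me3, with differences of −57.9, −43.6 and −19.4 percentage points from the lowest range to the highest. In replicate 2 they had more, with differences of 5.21, 13.1 and 6.97 points.

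In ATRX KD cells, fewer members had a peak of either target than in the full ATRXΔRBR lists. WT, whose lists chose the members, is no measure here. EZH2 was found at 643 members (45.2%, 42.6 to 47.9) in replicate 1 and 736 (51.8%, 49.2 to 54.4) in replicate 2, with a mean of 48.5% ± 4.63 (SD, n = 2). The reference had 38.2% and 49.6%, so the members lay 4.60 points above it on average. This order turned in the lowest range of WT fold enrichment, where the difference was −5.55 points, and in the middle range, where it was −3.60 points. H3K27me3 was found at 779 members (54.8%) and 745 (52.4%), with a mean of 53.6% ± 1.69 (SD, n = 2). The reference had 0.626%, but it was defined by the lack of this mark in WT, so the choice favors this difference. In all, 569 members (40.0%) had EZH2 in both ATRX KD lists, against 33.1% of all reproducible EZH2 promoters, and 636 (44.8%) had H3K27me3 in both, against 26.1% of all TSS with H3K27me3 in WT. The short lists of ATRX KD cells move with these shares. With lists reduced to equal length, EZH2 was at 42.8% of members in ATRX KD and 38.3% in ATRXΔRBR, and H3K27me3 at 52.3% and 44.2%, so that ATRX KD no longer lay below ATRXΔRBR for either target. Requiring a q-value of 0.01 in every list left H3K27me3 at 26.3%, and requiring 50% of the member to be covered left EZH2 at 12.4% and H3K27me3 at 14.3%.

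The peaks that remained in ATRX KD cells were narrower. The widest H3K27me3 peak at a member had a median of 1078 and 1073 bp. The mark covered on average 15.0% and 14.0% of the window around the TSS, against 46.0% and 43.6% in ATRXΔRBR. In WT, whose lists chose the members, it covered 75.8% and 77.8%. EZH2 peaks at members had a median width of 718 and 779 bp, against 1662 and 1560 bp in WT. Within its own list, the median member ranked at the 34.2nd and 31.6th percentile of fold enrichment in ATRX KD cells and at the 73.7th and 72.2nd in WT. EZH2 promoters without H3K27me3 ranked at the 61.3rd and 62.5th percentile in ATRX KD and the 67.2nd and 59.6th in WT. The lists differ in length and the ranks cover only promoters that still had a peak, so they describe each list and not a change.

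Among members with both targets in both ATRX KD lists, the strongest were at Pcdh1, a protocadherin, on chromosome 18 with a WT fold enrichment of 13.2, and at Rtn4rl1 (chr11:75192768-75196084), a Nogo receptor homolog, also with 13.2. Col13a1, a transmembrane collagen, Zfyve28, Adra2a, an adrenergic receptor, C2cd4b, Efna3, an ephrin, and Lrrc26, a potassium channel subunit, followed with 11.6 to 12.5. All 8 also held both targets in both ATRXΔRBR lists. At Wnt6 (chr1:74770034-74773967), a secreted Wnt ligand with a WT fold enrichment of 10.8, both targets were likewise present in every list.

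ATRX was rare at the members. In WT, 38 members (2.67%) overlapped an ATRX peak in replicate 1 and 8 (0.563%) in replicate 2, and in ATRXΔRBR 33 (2.32%) and 11 (0.774%) did. The means were 1.62% ± 1.49 in WT and 1.55% ± 1.09 in ATRXΔRBR (SD, n = 2 each), and an exact two-sided permutation test gave p = 1.0, where the smallest possible value was 0.33. At the EZH2 promoters without H3K27me3 the shares were 27.2% and 13.1% in WT and 31.3% and 11.0% in ATRXΔRBR. ATRX was in both WT lists at 7 members (0.493%) and in both ATRXΔRBR lists at 7 (0.493%), against 7.2% and 5.89% of all reproducible EZH2 promoters. In the highest range of WT fold enrichment, members had ATRX in WT at 5.17% and 0.862%, against 44.3% and 19.5% of the reference, so the gap was not confined to weak EZH2 peaks.

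The 62 members with ATRX in at least 1 of the 4 lists were unlike the rest. H3K27me3 lay over the EZH2 peak itself in both WT lists at 59.7% of them, against 91.7% of the 1359 without ATRX. EZH2 was found in ATRXΔRBR replicate 1 at 96.8% against 57.5%, and the median WT level of the nearest gene was 10.4 against 0.115 TPM. ATRX was in all 4 lists at 3 members, at Wfs1 (chr5:36988151-36989543), which encodes wolframin of the endoplasmic reticulum, Catspere2 (chr1:177982993-177984175) and Ankmy1 (chr1:92903549-92904039). It was in both ATRXΔRBR lists and no WT list at 2 members, Arhgap26, a GTPase-activating protein, and Mphosph6, an exosome cofactor. Wfs1 had H3K27me3 in neither ATRXΔRBR list and kept EZH2 in all lists.

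Genes of the members were mostly silent. The median level over the 1400 genes found in the RNA-Seq tables was 0.12 and 0.15 TPM in WT, then 0.025 and 0.04 in ATRXΔRBR and then 0.04 and 0.07 in ATRX KD. Under 1 TPM lay 69.9% and 69.2% of them in WT, then 75.1% and 75.7% in ATRXΔRBR and then 71.1% and 70.9% in ATRX KD. Genes at EZH2 promoters without H3K27me3 had medians of 32.8 and 37.5 TPM in WT and up to 43.3 in ATRX KD, far above the member genes. The share of member genes at exactly 0 was 34.0% and 36.2% in WT, then 49.7% and 46.2% in ATRXΔRBR and then 49.1% and 43.0% in ATRX KD. Over all protein-coding genes it was 35.1% and 35.2% in WT, then 38.3% and 36.8% in ATRXΔRBR and then 39.8% and 37.1% in ATRX KD. More member genes were without reads in both mutant genotypes than in either WT library. The ATRX KD library with 43.0% was the deepest of the 6.

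**Figure D3:**
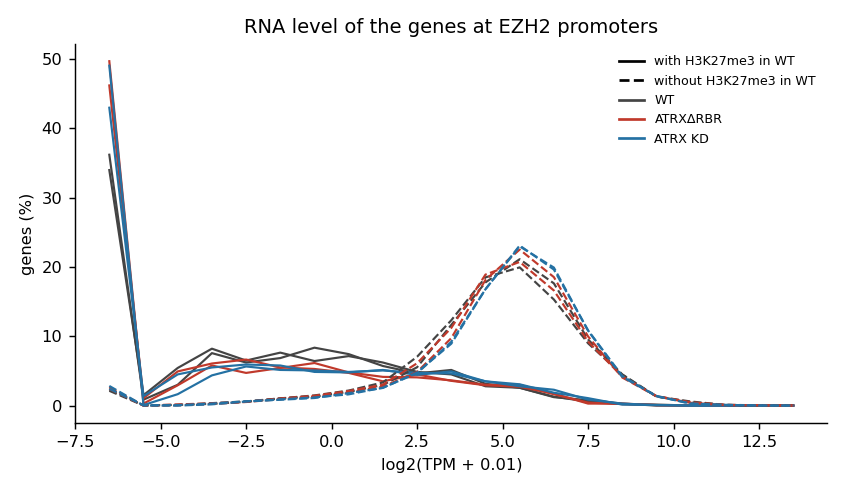
Distribution of RNA levels, as the percentage of genes per bin of log2(TPM + 0.01), for genes at EZH2 promoters with H3K27me3 in WT (solid lines) and without it (dashed lines) in each of 2 WT (dark gray), 2 ATRXΔRBR (red) and 2 ATRX KD (blue) libraries. Most member genes sat in the lowest bins, with medians of 0.12 and 0.15 TPM in WT, while the reference genes peaked far to the right, with medians of 32.8 and 37.5 TPM.

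A minority of the member genes was well expressed with both EZH2 and H3K27me3 near the TSS in WT. The TSS was the start of the annotated gene, and TPM covers all transcripts of a gene. RNA from another start of the same gene, as may hold for Gnas, cannot be told apart. Gnas, the stimulatory G protein alpha subunit and an imprinted gene, had 591 and 477 TPM in WT. Ndufb8, of respiratory complex I, had 321 and 288 TPM. Uchl1 (EZH2 peak at chr5:66675607-66677941), a neuronal ubiquitin hydrolase, had 493 and 386 TPM in WT, then 203 and 227 in ATRXΔRBR and then 47.6 and 53.6 in ATRX KD. The 3 genotypes did not overlap, and its log2 fold change was −1.21 in ATRXΔRBR (edgeR, adjusted p = 0.0325) and −3.44 in ATRX KD (adjusted p = 0.000198). Sec13, a coat protein of vesicles and nuclear pores, had 206 and 240.5 TPM in WT, then 121 and 122 in ATRXΔRBR and then 157 and 159 in ATRX KD. It fell by 0.93 on the log2 scale in ATRXΔRBR (edgeR, adjusted p = 0.0167) and by 0.78 in ATRX KD (adjusted p = 0.00302). Atp5k, Gar1, Ndufa10 and Thop1 made up the rest of the highest 8 on autosomes, at 141 to 577 TPM in WT, and neither these nor Gnas and Ndufb8 passed the test in ATRXΔRBR. In ATRX KD, Atp5k fell by 1.02 and Gar1 by 0.83 on the log2 scale, and Ndufb8 rose by 0.55 (edgeR, adjusted p = 0.0188, 0.00586 and 0.0335). In bulk RNA, fewer cells that express a gene and less RNA per cell cannot be told apart.

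Of the 1421 members, 37 lay on the X chromosome, of which female cells keep 1 copy silent. Their 38 genes had medians of 0.295 and 0.305 TPM in WT and 0 in each of the other 4 libraries. The highest were Pls3, an actin-bundling protein, at 121 and 158 TPM in WT, and Kdm5c, a histone demethylase that escapes X inactivation, at 106 and 99.6. Tspyl2 and Rlim, an E3 ubiquitin ligase, had 36.2 to 56.6 TPM in WT. These 4 did not pass the test in either comparison with WT.

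In ATRXΔRBR cells, RNA of the member genes changed more often downward than upward. Of the 1400 genes, 643 were tested, since the estimated counts of the 4 libraries summed to more than 10. A gene that reached this number only through its WT libraries had to be lower, so the tested genes do not stand for all members. With edgeR's quasi-likelihood test and an adjusted p under 0.05, 38 member genes (5.91% of those tested) were higher and 154 (24.0%) lower, against 2.79% and 4.07% of all 16334 genes tested. The median log2 fold change was −0.39 for member genes and −0.02 for all genes. Genes at EZH2 promoters without H3K27me3 had 161 higher and 164 lower of 7706 tested. H3K27me3 genes without EZH2 had 4 higher and 21 lower of 132, with a median of −0.38, so the downward balance was also seen at H3K27me3 genes outside the members.

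The balance depended on the level of the gene. Among genes with a mean of 1 to 10 CPM (counts scaled to library size) over the 4 libraries, all of which were tested, 19 member genes were higher and 101 lower of 261 (38.7% lower), against 12.2% lower of 1936 other protein-coding genes. Above 10 CPM, 16 were higher and 19 lower of 184 (10.3% lower), against 2.00% of 9004 others. Below 1 CPM, where only 198 of 955 member genes were tested, 3 were higher and 34 lower, against 14 and 66 of 1100 other protein-coding genes tested. With at least 10 counts required in every library, which drops genes that fell to 0, 26 were higher and 42 lower of 334, and the median was 0.0037. Without chromosomes 1, 5, 9, 15 and 18, whose protein-coding genes as a whole were shifted by more than 0.2 on the log2 scale, 27 member genes were higher and 107 lower of 460 tested, or 23.3% lower, so this share was nearly as large.

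Genes without H3K27me3 in ATRXΔRBR were called lower more often than higher, as were those that kept it. Of 405 genes with the mark in neither ATRXΔRBR list, 168 were tested, of which 11 were higher and 57 lower with a median log2 fold change of −0.46. Of 903 genes with the mark in both lists, 427 were tested, of which 23 were higher and 90 lower with a median of −0.39. With at least 10 counts in every library, 10 were higher and 12 lower of 84 with the mark in neither list, and 15 were higher and 29 lower of 224 with it in both, with medians of −0.02 and 0.0037. Without that filter, genes with the mark in neither list were split by EZH2. The first of these groups had EZH2 only in the list labelled ATRXΔRBR replicate 2, where 2 were higher and 43 lower of 73 tested out of 242 and the median was −3.68. At genes with the mark in neither list but EZH2 in both, 8 were higher and 4 lower of 58 tested out of 77, and the median was 0.13. Per gene, 17.8% and 5.19% were lower. Where EZH2 was also in neither list, 0 were higher and 8 lower of 27 tested out of 74 (10.8% per gene), with a median of −1.42. With EZH2 in replicate 1 only, 1 was higher and 2 lower of 10 tested out of 12 (16.7% per gene), with a median of −0.06. A gene can pass the filter on counts through WT alone, and the difference between these groups was not tested.

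**Figure D4:**
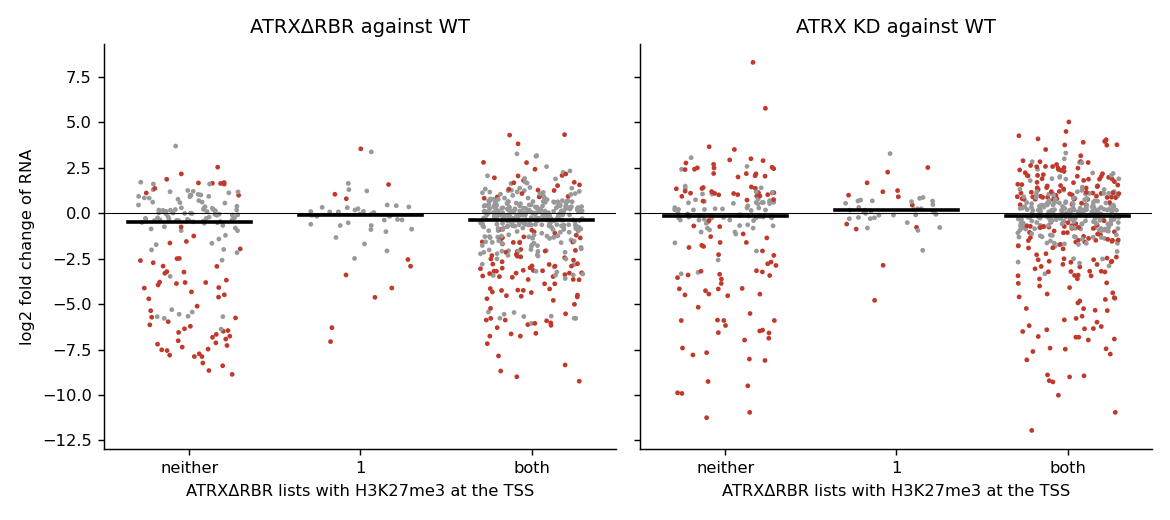
Log2 fold change of RNA (y axis) of tested member genes in ATRXΔRBR (left) and ATRX KD (right) against WT, by the number of ATRXΔRBR lists with H3K27me3 at the TSS (x axis), where each point is a gene, red points passed the test and black bars are medians. Medians against WT in ATRXΔRBR were −0.46 for genes with the mark in neither list and −0.39 for genes with it in both, those in ATRX KD were −0.16 and −0.13, and points far below 0 are genes with few or no counts in the mutant.

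The 12 genes with the largest fall in ATRXΔRBR had no count at all in either ATRXΔRBR library. Cpeb1 (EZH2 peak at chr7:81454275-81455924), a regulator of cytoplasmic polyadenylation, had 71 and 85 counts in WT and 0 and 0 in ATRXΔRBR. With a floor of 3 counts summed over both libraries of the genotype without counts, here and below, it was at least 48.1-fold lower. It also had 0 and 5 counts in ATRX KD. Shroom2 (chrX:152768997-152770917), an apical actin regulator, had 63 and 69 in WT and 0 in all 4 other libraries, at least 40.7-fold lower in ATRXΔRBR. Wnt10a, a Wnt ligand, had 66 and 41 in WT and 0 in all 4 others, at least 33.0-fold lower. All 3 passed edgeR's test, with adjusted p = 0.00114, 0.00136 and 0.00243, and no mutant library overlapped WT.

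Other genes of this group had counts in ATRX KD, some of them above WT. Sim2 (chr16:94083667-94086316), a bHLH regulator of the midline, had 66 and 55 counts in WT, then 0 and 0 in ATRXΔRBR and then 5 and 11 in ATRX KD, at least 37.3-fold lower in ATRXΔRBR (edgeR, adjusted p = 0.00148). Its promoter had H3K27me3 in neither ATRXΔRBR list and in both ATRX KD lists. Mark1 (chr1:184998692-185001116), a microtubule affinity-regulating kinase, had 50 and 54 in WT, then 0 and 0 in ATRXΔRBR and then 84 and 186 in ATRX KD. It was at least 32.0-fold lower in ATRXΔRBR (edgeR, adjusted p = 0.00198), and its log2 fold change in ATRX KD was 1.08 (SE 0.23, adjusted p = 0.0113). Rragd (chr4:32982092-32984499), a Rag GTPase of amino acid sensing, had 38 and 46, then 0 and 0, then 156 and 380, at least 25.9-fold lower in ATRXΔRBR (edgeR, adjusted p = 0.00299). Mark1 and Rragd thus had no counts in ATRXΔRBR and lay above WT in ATRX KD. Lmo1, Pcsk6, Chst10, Ak4, Fgd4 and Zfp521 completed the 12, with 21 to 46 counts in the WT libraries, and the exons of Pcsk6 overlap those of Gm45213, so that their reads may not be told apart. Of all member genes, 27 had 0 counts in both ATRXΔRBR libraries and at least 10 in both WT libraries, and none showed the reverse. The same loss of all counts was seen at 86 of 21877 protein-coding genes, with 3 in reverse, and at 6 of 7975 genes at EZH2 promoters without H3K27me3, with 0 in reverse. In ATRX KD, 31 member genes lost all counts in this way and 1 showed the reverse, against 103 and 7 of all protein-coding genes.

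Genes that were higher in ATRXΔRBR were fewer. Alcam (chr16:52450431-52454232), an adhesion molecule of the immunoglobulin superfamily, had 98 and 65 counts in WT, then 474 and 537 in ATRXΔRBR and then 101 and 174 in ATRX KD. Its log2 fold change in ATRXΔRBR was 2.78 (SE 0.24, edgeR, adjusted p = 0.000747), although EZH2 and H3K27me3 were present at its promoter in both ATRXΔRBR lists. Igfbp4, an IGF-binding protein, had 45 and 32 in WT, then 106 and 222 in ATRXΔRBR and then 5 and 18 in ATRX KD, a log2 fold change of 2.16 in ATRXΔRBR (SE 0.29, adjusted p = 0.00452). Tspan18, a tetraspanin, had 27 and 35, then 102 and 136, then 7 and 4, a log2 fold change of 2.05 (SE 0.29, adjusted p = 0.00549). For each of these 3 genes both ATRXΔRBR libraries lay above both WT libraries. Tesc, Kif26a, Sspo, Clic5, Cited1, Clec11a, Meiob, Gprc5c and Amigo2 made up the rest of the 12, with log2 fold changes of 2.08 to 4.32, and Tesc, Kif26a, Sspo, Clic5 and Cited1 had at most 5 counts in a WT library. The exons of Amigo2 overlap those of Pced1b.

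**Figure D5:**
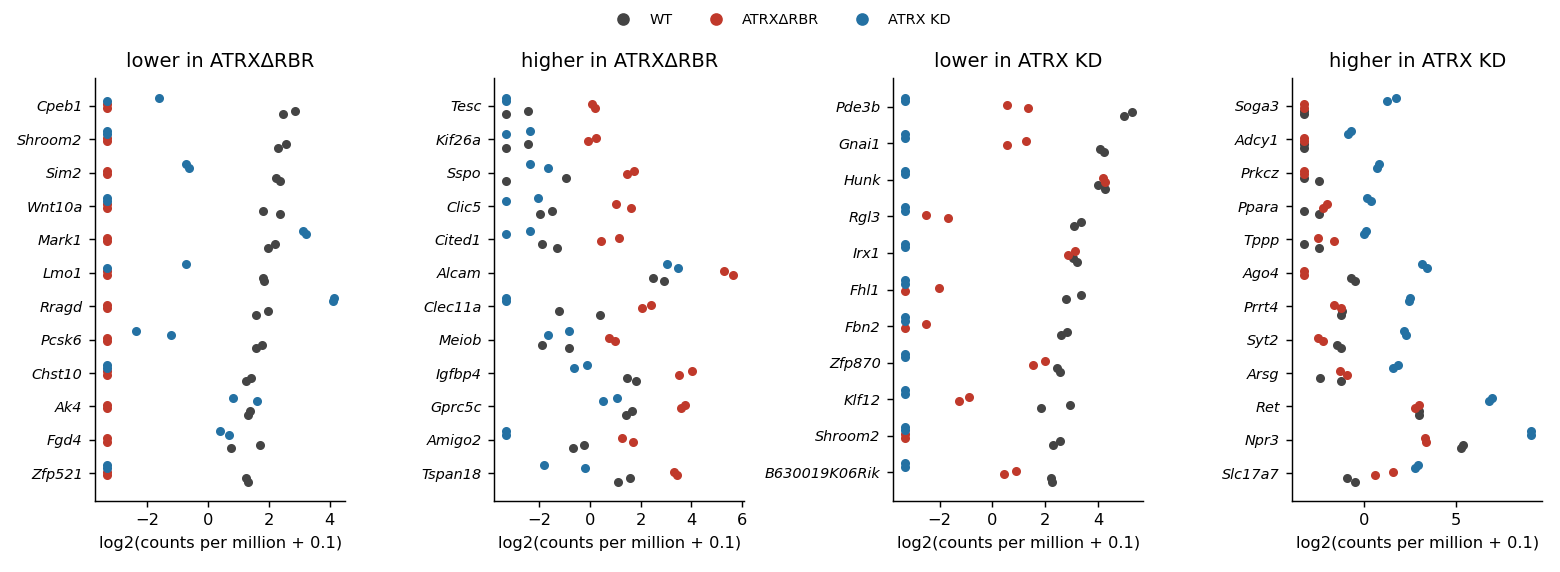
Level of the member genes with the largest fall and the largest rise in ATRXΔRBR (left panels) and in ATRX KD (right panels), as log2(CPM + 0.1) on the x axis in each of 2 WT (dark gray), 2 ATRXΔRBR (red) and 2 ATRX KD (blue) libraries. Points at the left edge are libraries with no count, which holds for both ATRXΔRBR libraries of all 12 genes in the first panel and for both ATRX KD libraries of every gene in the third.

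In ATRX KD cells more member genes were called than in ATRXΔRBR, in both directions. Of 670 genes tested, 143 (21.3%) were higher and 174 (26.0%) lower, against 15.2% and 17.8% of all 16785 genes tested, and the median log2 fold change was −0.11. With at least 10 counts in every library, 115 (31.9%) were higher and 58 (16.1%) lower of 360 with a median of 0.19, against 19.8% and 20.1% of all 11781 genes. The median was 0.053 without WT replicate 1, so its sign was not stable. Above 10 CPM, 66 member genes were higher and 40 lower of 208, against 1881 and 1916 of 9029 other protein-coding genes. Where H3K27me3 was in neither ATRX KD list, 79 were higher and 67 lower of 310, and where it was in both, 39 were higher and 81 lower of 256. Medians were 0.17 and −0.48. With at least 10 counts in every library the balance was upward in both groups, with 66 higher and 30 lower of 204 where the mark was in neither list and 29 higher and 20 lower of 107 where it was in both.

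Ret (chr6:118195588-118198643), a receptor tyrosine kinase of neural crest and kidney, had 103 and 95 counts in WT, then 63 and 108 in ATRXΔRBR and then 1038 and 2678 in ATRX KD. Its log2 fold change in ATRX KD was 3.90 (SE 0.14, edgeR, adjusted p = 3.2e-05), and neither target was called in the ATRX KD lists. Npr3 (chr15:11903625-11907566), the natriuretic peptide clearance receptor, had 505 and 506, then 98 and 136, then 5091 and 11867, and its log2 fold change was 3.77 (SE 0.12, adjusted p = 2.4e-05). The ATRX KD libraries lay far above the others for both genes, and neither promoter had H3K27me3 or EZH2 in an ATRX KD list. Soga3, Adcy1, Prkcz, Ppara, Tppp, Ago4, Prrt4, Syt2, Arsg and Slc17a7 completed the 12. Ago4, Prrt4, Arsg and Slc17a7 likewise had neither target in an ATRX KD list, whereas Prkcz and Syt2 had both targets in both lists. Soga3 had H3K27me3 alone and Tppp EZH2 alone in both lists. Adcy1 had each target in 1 list and Ppara EZH2 in 1 list. Soga3 and Adcy1 had no count in WT and were at least 24.8-fold and 4.09-fold higher in ATRX KD, and the other 8 had log2 fold changes of 3.76 to 5.02. Slc17a7 encodes a vesicular glutamate transporter, Syt2 a synaptotagmin and Adcy1 an adenylate cyclase, the last with only 4 and 11 counts in ATRX KD. The exons of Soga3, Arsg and Npr3 overlap those of other genes.

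The genes with the largest fall in ATRX KD had no count in either library. Pde3b (chr7:114413819-114417625), a cyclic nucleotide phosphodiesterase, had 411 and 468 counts in WT, then 23 and 19 in ATRXΔRBR and then 0 and 0 in ATRX KD, at least 358-fold lower (edgeR, adjusted p = 9.7e-05). Hunk (chr16:90384268-90387351), a serine/threonine kinase, had 252 and 193, then 182 and 251, then 0 and 0, at least 181-fold lower (adjusted p = 0.000154). Hunk held EZH2 and H3K27me3 in all lists of all genotypes, and its log2 fold change in ATRXΔRBR was 0.09 (adjusted p = 0.865). Gnai1, Rgl3, Irx1, Fhl1, Fbn2, Zfp870, Klf12, Shroom2 and B630019K06Rik followed, of which Fhl1, Shroom2 and B630019K06Rik lie on X.

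Directly between the mutant genotypes, 213 of 612 tested member genes (34.8%) were higher in ATRX KD than in ATRXΔRBR and 113 (18.5%) lower, against 16.2% and 18.5% of all 16520 genes tested. The median difference was 0.30 on the log2 scale, and 0.13 without ATRX KD replicate 2. Both comparisons with WT share the WT libraries, so their values are only set side by side.

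Developmental regulators made up part of the members. For this and the following families, the shares over all tested members serve as background. These were 5.91% higher and 24.0% lower in ATRXΔRBR and 21.3% and 26.0% in ATRX KD. Over all tested genes they were 2.79% and 4.07%, and 15.2% and 17.8%. Counts per family are small and were not tested, and a gene can pass the filter through its WT counts alone. Of 139 homeobox and Pax genes outside the Hox clusters, 38 (27.3%) were members, of which 26 had H3K27me3 in both ATRXΔRBR lists and 11 in neither. In ATRXΔRBR 13 had enough counts to be tested, none was called higher, and Lhx1, Lhx2, Meis3 and Nkx3-2 were among those called lower. In ATRX KD, 14 were tested, of which Meis3, Vax2, Zfhx2 and Zfhx4 were higher and Dlx4, En1 and Irx1 lower. Gbx1, Gsc2 and Barx2 were among the strongest EZH2 peaks of the family, with fold enrichments of 9.16 to 9.44. Of 39 Hox genes, Hoxa7 alone was a member. The rule left out EZH2 peaks of 5000 bp or wider, so this does not show how many Hox promoters carried both targets.

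Signaling genes were another group. Of 58 Wnt pathway genes, 26 (44.8%) were members, of which 16 had H3K27me3 in both ATRXΔRBR lists and 8 in neither. Of 9 tested in ATRXΔRBR, 5 were lower, namely the antagonists Nkd2, Notum and Sfrp1, the agonist Rspo3 and the ligand Wnt10a, and none was higher. In ATRX KD, 8 were tested, of which Rspo3, Wnt10a and Wnt4 were lower. Wnt7a, Wnt6, Axin2 and Wnt3a had the strongest EZH2 peaks, with fold enrichments of 10.3 to 11.2, and held both targets in every list. Among basic helix-loop-helix genes 18 of 70 were members, of which Hey2 and Sim2 were lower in ATRXΔRBR, and Hey1, Hey2, Id4 and Sim2 lower in ATRX KD, of 6 tested in each.

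Ion channels and neurotransmitter receptors were the largest group, with 77 of 299 as members, 44 with H3K27me3 in both ATRXΔRBR lists and 27 in neither. Only 16 were tested in ATRXΔRBR, where Cacna1g was higher and Hcn2 and Kcnj4 lower. In ATRX KD, Cacna1g was lower and Hcn2, Kcnn1 and Trpv4 were higher of 19 tested. The strongest EZH2 peak of all members, with a fold enrichment of 13.7, was at the potassium channel gene Kcnh3 (chr15:99222002-99226648). Guidance receptors and ligands gave 15 members of 71, with Epha8 higher and Epha7 and Unc5c lower in ATRXΔRBR of 11 tested, while in ATRX KD Epha4 and Sema6b were higher and Epha7, Epha8, Sema6a and Unc5c lower. Smaller groups were zinc finger regulators with 17 of 114 members (Gli2 and Klf12 lower in ATRXΔRBR), cadherins with 13 of 108 (Celsr2 lower), forkhead and Sox genes with 11 of 63 (none called in ATRXΔRBR), FGF, Hedgehog and Notch genes with 11 of 53 (Fgf5 lower), TGF-beta and BMP genes with 10 of 68 and T-box genes with 2 of 17, with none called in ATRXΔRBR in either. In ATRX KD, Celsr2, Fgfr3 and Jag2 of these groups were higher, and Gata2, Klf12, Osr2, Pcdh1, Pcdhb5, Fgf5, Bambi and Sox13 were among those lower. None of 10 cell cycle inhibitor genes was a member. Across all these groups, 2 genes were called higher in ATRXΔRBR, Cacna1g and Epha8.

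The enzymes that place and remove the mark were measured as well. Of 13 genes of PRC2 subunits and H3K27 demethylases, Ezh1, the other methyltransferase of PRC2, was higher in ATRXΔRBR with a log2 fold change of 1.03 (edgeR, adjusted p = 0.0161), and none was lower. In ATRX KD, 3 were higher and 5 lower. Their summed level was between 1368 and 1530 TPM in all 6 libraries. Of 16 PRC1 genes, 1 was higher and none lower in ATRXΔRBR, and 2 were higher and 4 lower in ATRX KD. Cbx8 and Phc2, both PRC1 subunits, were themselves members. The fibroblast markers Pdgfra and Thy1 (chr9:44042431-44043753) were members as well, and RNA of Thy1 was at 0 in all 6 libraries.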

How the data were processed

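Peaks of ATRX, EZH2 and H3K27me3 (16 lists) and RNA (6 libraries) from WT, ATRXΔRBR and ATRX KD MEFs were used, with 2 replicates in each group, and groups were taken from the labels. The authors aligned CUT&RUN reads to mm10 with Bowtie2 and called broad peaks in each library with MACS2 (broad cutoff 0.1). The deposited lists give fold enrichment over the local background, a ratio, and the −log10 q-value of each peak. For RNA-Seq, the authors used STAR and RSEM, and the deposited tables hold estimated counts and TPM per gene. IgG libraries were not analysed here. The strand setting of the counting is not given in the sources used here, so antisense and overlapping genes cannot be told apart.

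Members were found with an overlap of at least 1 bp and the TSS of GENCODE M21 protein-coding genes, with coordinates on mm10 (GRCm38). At members, EZH2 and ATRX were read as overlap with the peak and H3K27me3 as overlap with the window around the TSS. Estimated counts were rounded to whole numbers, a gene was kept where the 4 libraries compared summed to more than 10, and edgeR's quasi-likelihood test with TMM scaling was used, with Benjamini-Hochberg adjustment over all genes tested and a threshold of 0.05. Only the libraries of the genotypes compared entered each fit. Shares have exact Clopper-Pearson intervals at 95.0%, which cover counting error only. The peak lists hold no read numbers per library, and RNA libraries held 9051693 to 21723647 estimated counts.

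Named genes were, for each comparison with WT, the 12 called higher and the 12 called lower with the largest log2 fold change. Named peaks were up to 8 per state of occupancy and 4 per gene family with the highest WT fold enrichment, the members next to each limit, and the 8 autosomal and 4 X-linked genes with the highest WT TPM. Other genes are named from the gene lists where they were called. A few genes that met these rules, and 1 promoter sequence, are not reported here. The members and gene lists were chosen with earlier results of these data known. Alternatives were DESeq2 and its size factors, other filters, a replicate block, each replicate left out, a q-value of 0.01, other windows and overlaps, and lists of equal length. The statistical steps were tested on simulated data. Python 3.11.15, numpy 2.4.6, pandas 2.3.3, scipy 1.17.1, matplotlib 3.10.9, limma 3.58.1, DESeq2 1.42.0, edgeR 4.0.16 and R 4.3.3 were used.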

Additional observations from a re-analysis of the deposited data

Results flagged for a closer look

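For 7 of the named genes, the response in ATRXΔRBR and that in ATRX KD went in opposite directions. The direct comparison of ATRX KD with ATRXΔRBR by edgeR's quasi-likelihood test passed the threshold, but it used the libraries that picked the genes. Its p-values are thus no separate support for these 7 genes. Of these, 4 were higher than WT in ATRXΔRBR and lower in ATRX KD. Clec11a, a secreted lectin that acts as a growth factor, had a log2 difference of −8.98 between ATRX KD and ATRXΔRBR (adjusted p = 0.000138). Amigo2, an adhesion protein, had −8.22 (adjusted p = 0.000515), but its higher call in ATRXΔRBR was lost with DESeq2 and without ATRXΔRBR replicate 1. Both genes had no count in ATRX KD, so these fitted values depend on the prior count. Igfbp4 had −4.23 (adjusted p = 2.98e-05) and Tspan18 −4.78 (adjusted p = 8.61e-05).

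The other 3 were lower than WT in ATRXΔRBR and higher in ATRX KD. Mark1 had a log2 difference of 9.89 (adjusted p = 3.07e-05) and Rragd of 10.86 (adjusted p = 7.42e-06), and both had no count in ATRXΔRBR. Npr3 had 5.75 (adjusted p = 4.61e-07) with counts in every library. Among all member genes, 47 were called in opposite directions in the comparisons with WT, of which 11 were higher in ATRXΔRBR and lower in ATRX KD. Over all genes, members among them, 244 were, of which 109 had that direction. Tested in ATRXΔRBR and in ATRX KD were 643 and 670 member genes, against 16334 and 16785 of all genes. The genes tested in both comparisons were not counted, so no share is given. Both comparisons share the WT libraries.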

How the results depend on the processing

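Named genes kept their direction in all 458 values under alternatives, and 13 of these values lost the call, 6 of them with DESeq2, at Tesc, Kif26a, Cited1, Meiob, Amigo2 and Tppp. Among occupancy shares, EZH2 in ATRXΔRBR was 53.8% with 50% of the member covered, 38.3% with lists of equal length and 99.7% for the reversed rule read in WT. EZH2 in ATRX KD was 37.4% with q-values of 0.01 or less, 12.4% with 50% covered and 42.8% with equal lists, and its difference from the reference turned to −5.55 and −3.60 points in the lowest and middle ranges of fold enrichment. H3K27me3 in ATRXΔRBR was 62.9% with the stricter q-value, 61.1% with a window of 1 kb, 46.2% with 50% covered, 44.2% with equal lists, 64.3% and 64.0% when chosen on WT replicate 1 or 2 alone, and 77.9% for the reversed rule read in WT. H3K27me3 in ATRX KD was 26.3%, 45.8%, 56.9% and 14.3% with the stricter q-value, the 1 kb window, H3K27me3 over the EZH2 peak itself and 50% covered. ATRX in ATRXΔRBR was 0.211% with 50% covered. The stricter settings require more of a peak by construction.

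Requiring at least 10 counts in every library, which leaves fewer genes, gave 68 calls for ATRXΔRBR (42 lower), 173 for ATRX KD (58 lower) and 154 between the mutants (98 higher, 56 lower), against 192, 317 and 326. The medians turned to 0.0037 in ATRXΔRBR and 0.19 in ATRX KD. The median in ATRX KD ranged from −0.15 to 0.053 with 1 replicate left out, the latter without WT replicate 1, and turned to 0.12 and 0.17 as a ratio of mean TPM with a pseudocount of 1 or 0.1, and the cause was not tested. DESeq2 gave 162, 271 and 267 calls.

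Leaving out 1 replicate at a time, calls ranged from 166 to 205 in ATRXΔRBR (31 to 41 higher, 135 to 164 lower), from 251 to 379 in ATRX KD (111 to 182 higher, 140 to 197 lower) and from 249 to 377 between the mutants (158 to 237 higher, 91 to 140 lower). Single lists gave 59.3 to 83.7% for EZH2 in ATRXΔRBR, 45.2 to 51.8% in ATRX KD, 66.0 to 68.1% and 52.4 to 54.8% for H3K27me3, and 0.563 to 2.67% and 0.774 to 2.32% for ATRX in WT and ATRXΔRBR. Median levels were 0.12 to 0.15, 0.025 to 0.04 and 0.04 to 0.07 TPM in WT, ATRXΔRBR and ATRX KD.

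A replicate block gave 199 calls in ATRXΔRBR (32 higher, 167 lower), 332 in ATRX KD (149 and 183) and 355 between the mutants (227 and 128). Deviations of same-numbered libraries correlated at −0.533, −0.0692 and 0.0899, so the numbers do not pair the samples. The crossed replicate block for ATRXΔRBR, chosen after seeing the data, gave 362 calls (101 higher, 261 lower, or 15.7% and 40.6% of those tested, against 16.4% and 17.9% of all genes).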
